A study of Danio rerio with 8 samples.

Results

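The genes described are col18a1a, a basement membrane collagen gene, and 9 other matrix genes: the basement membrane collagens col4a1 and col4a2, the fibrillar collagens col1a1a, col1a1b, col1a2 and col5a1, the proteases mmp2 and mmp14a, and the collagen-binding glycoprotein gene sparc. They are 10 of the 32520 genes in the deposited count table and were picked by zebrafish gene name, with their mutant and sibling values in these same libraries known. Their differences between the groups are therefore given as a description, with no test, and support nothing further. Each of the names but one led to a single Ensembl identifier. The exception, mmp14a, is listed under the symbol MMP14, which the identifiers ENSDARG00000002235 and ENSDARG00000008388 share, and which of them is mmp14a was not settled, so both are given and the text counts 11 identifiers. The identifier used for col1a1b (ENSDARG00000035809) is listed as COL1A1 and was assigned by elimination, since col1a1a has an identifier of its own (ENSDARG00000012405).

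RNA was sequenced from cells of zebrafish embryos at 3 days post fertilisation, in 4 libraries from ddx21 mutants and 4 from embryos labelled as siblings. Every embryo carried the transgenes Tg(fli1a:nEGFP) and Tg(5.2lyve1b:DsRed), a green nuclear reporter driven by the endothelial gene fli1a and a red reporter driven by regulatory sequence of lyve1b, a venous and lymphatic gene. Cells positive for both colours were sorted, and the labels call them venous and lymphatic endothelial cells (VECs, LECs). The sources used here do not give the mutant allele, the genotype of the siblings or the number of embryos behind a library. The series title concerns the RNA helicase Ddx21 in lymphatic development driven by Vegfc, with ribosome biogenesis and p53 signalling.

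Basement membranes are thin sheets of matrix under epithelia and around vessels, in which networks of type IV collagen and laminins are joined by nidogens and by proteoglycans such as perlecan and collagen XVIII. The interstitial matrix beyond them is built on fibrils of type I collagen, with type V collagen starting and limiting fibril growth. Endothelial cells secrete type IV collagen into their own basement membrane, while in zebrafish larvae the epidermis and the fibroblast-like cells beneath it make much of the type I collagen of the skin. Metalloproteases such as Mmp2 cleave collagens, and sprouting vessels and lymphatics move through the matrix that these genes build and degrade.

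The count table held 38459219 to 51173007 reads per library, and 18051 to 25329 genes per library had a read, the fewest in mutant 4, sibling 4 and mutant 1. Levels below are read counts scaled to library size (CPM) after TMM normalisation, with the SD over 4 libraries. A log2 fold change is mutant over sibling as fitted by edgeR, with its standard error (SE). Unless another setting is named, that fit did not use the replicate numbers. The mutated gene ddx21 measured 245.0, 363.7, 336.5 and 300.4 CPM in siblings 1 to 4 and 232.3, 265.4, 169.3 and 216.7 CPM in mutants 1 to 4. It was lower in the mutant of 4 of 4 same-numbered pairs, as were 8.42% of all tested genes. The log2 fold change was -0.50 (SE 0.21), and the groups overlapped. A two-sided exact permutation test that ignored the replicate numbers gave p = 0.057, where 0.029 is the smallest value it allows. Over all 18549 tested genes edgeR called 0 (0%) at an adjusted p under 0.05. DESeq2 called 62 of the 18371 genes it tested (0.337%). At an unadjusted p under 0.05, edgeR called 247 higher and 309 lower, together 3% of the tested genes. Nothing in the labels says that libraries of a group came from separate clutches or sorts, so such p-values reflect how these particular libraries vary, which may be partly technical.

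Of the matrix genes, 7 of the 11 identifiers were higher in the mutant of 4 of 4 same-numbered pairs: col18a1a, the 4 fibrillar collagens, mmp2 and sparc. Among all tested genes 8% showed that pattern, and nothing is read from the difference, since the members were chosen on these values. The basement membrane collagens col4a1 and col4a2 and both MMP14 identifiers had pairs in both directions. The fitted log2 fold change was above 0 for 10 of the 11 identifiers (50.2% of all tested genes), with a median of 0.80 against 0.00 over all genes. The spread between libraries of 1 group was larger than this for most of them: for 1 identifier, mmp2, all mutant libraries lay above all sibling libraries (1.42% of all tested genes). All 11 passed the filter on low counts, and between 538 and 90417 reads stood behind each value.

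**Figure D1:**
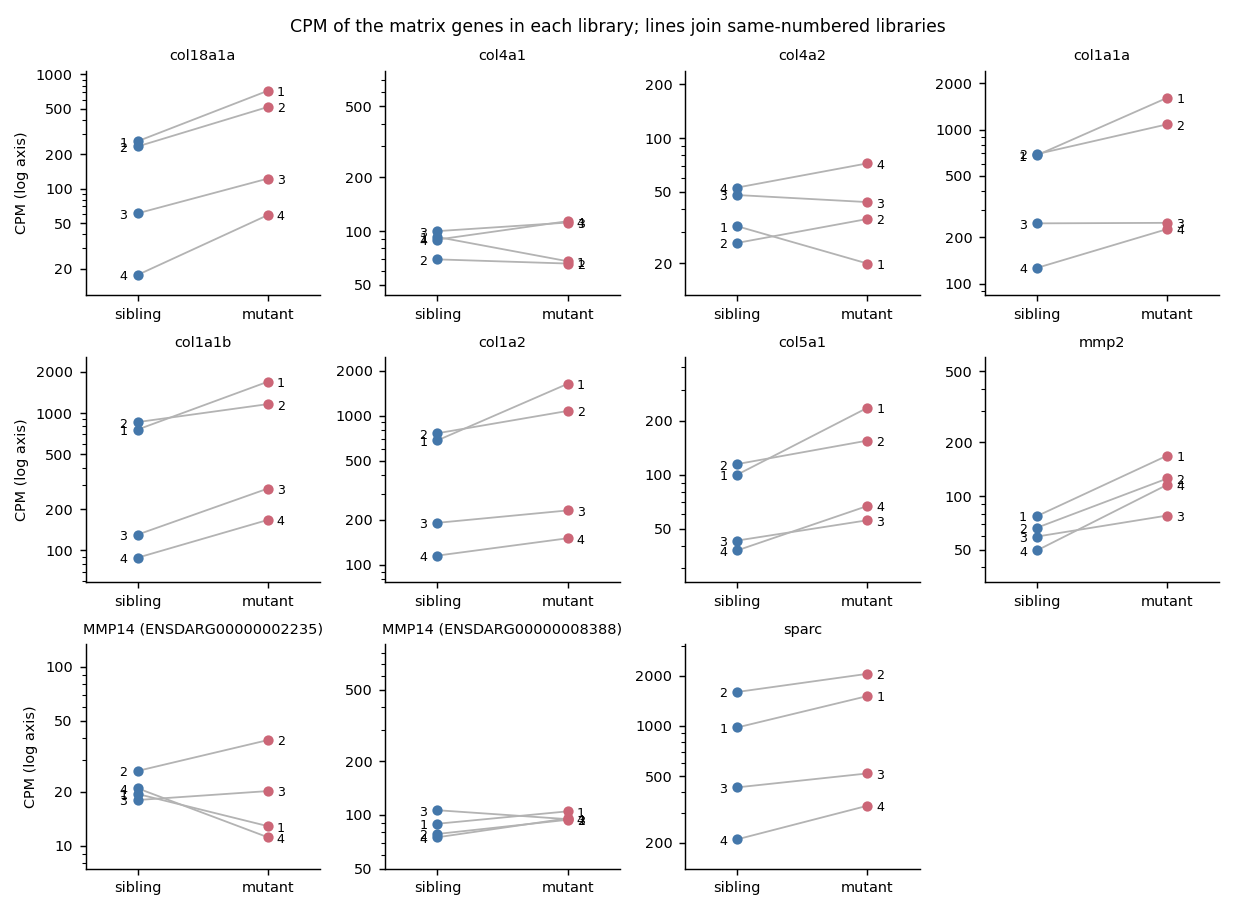
Level of each of the 11 identifiers in the 8 libraries, in CPM on a log axis, with siblings and mutants in separate colours and the replicate number beside each point. Col18a1a runs from 17.6 CPM in sibling 4 to 720.1 CPM in mutant 1, while col4a1 stays between 65.9 and 113.7 CPM.

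Col18a1a (ENSDARG00000036558) encodes a chain of collagen XVIII, a heparan sulfate-bearing collagen of basement membranes whose C-terminal fragment is endostatin, in mammals an inhibitor of vessel growth. It measured 260.2, 234.2, 60.8 and 17.6 CPM in siblings 1 to 4 and 720.1, 519.2, 122.6 and 58.8 CPM in mutants 1 to 4. Each mutant library lay above the sibling library of its number, but the groups overlapped, because the libraries numbered 3 and 4 were low in both groups. Within pairs the mutant level was 2.77, 2.22, 2.02 and 3.34 times the sibling level. The group means were 143.2 ± 121.9 and 355.2 ± 317.3 CPM (SD, n = 4 per group), and the log2 fold change was 1.31 (SE 0.94). Fitted with a block for the replicate number, the value was 1.34 with an SE of 0.16. The block gave a smaller SE for every other identifier too, as for col1a1b (0.91, SE 0.15), sparc (0.48, SE 0.12) and col4a1 (-0.01, SE 0.18). In the fit with the block 0 of all 18549 tested genes passed an adjusted p under 0.05. Mutant 1 was the highest library, and without it the log2 fold change was 0.72, whereas without sibling 1 it was 1.77. Its duplicate col18a1b, a gene outside the chosen set, measured 6.999 to 32.1 CPM in mutants and 15.2 to 25.3 CPM in siblings and was higher in the mutant of 1 of 4 pairs.

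Col4a1 (ENSDARG00000055009) and col4a2 (ENSDARG00000104110) encode the chains of the commonest type IV collagen trimer and are next to each other in the RefSeq gene table for the assembly GRCz12tu. Col4a1 measured 92.7, 69.5, 100 and 89.7 CPM in siblings and 67.8, 65.9, 111.7 and 113.7 CPM in mutants 1 to 4. The mutant was the lower library of pairs 1 and 2 and the higher of pairs 3 and 4, so the groups overlapped throughout. The means were 88.0 ± 13.1 and 89.8 ± 26.5 CPM (SD, n = 4 per group), for a log2 fold change of 0.03 (SE 0.25). Col4a2 measured 32.1, 25.9, 48.0 and 52.9 CPM in siblings and 19.9, 35.3, 43.9 and 72.2 CPM in mutants. Its pairs were split as well, with the mutant lower in pairs 1 and 3, and the log2 fold change was 0.11 (SE 0.39). The pair ratios spanned 0.73 to 1.27 for col4a1 and 0.62 to 1.37 for col4a2, with pair 1 the lowest for both.

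The type I collagen genes had the same order of libraries as col18a1a at the top and the bottom. Col1a1a, a gene for the alpha 1 chain, measured 682.0, 693.6, 246.3 and 126.6 CPM in siblings and 1608.7, 1082.2, 248.2 and 226.2 CPM in mutants 1 to 4. Mutants 1 and 2 stood above every sibling library, and the libraries of pair 3 were nearly level, with a ratio of 1.01. Its log2 fold change was 0.86 (SE 0.73). Col1a1b, the duplicate alpha 1-type gene, measured 759.0, 860.3, 130.5 and 88.6 CPM in siblings and 1693.4, 1162.8, 282.5 and 167.0 CPM in mutants. Here pair 3 differed by a ratio of 2.17 and pair 1 by 2.23, and the groups again overlapped, with a log2 fold change of 0.85 (SE 0.90). Since col1a1a and col1a1b are duplicates, reads that match both may have been split or lost in counting, which was not tested.

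Col1a2 (ENSDARG00000020007), the gene for the alpha 2 chain of type I collagen, measured 682.6, 762.0, 191.5 and 115.5 CPM in siblings and 1633.9, 1075.4, 231.8 and 150.9 CPM in mutants. The pair ratios were 2.39, 1.41, 1.21 and 1.31, so that pair 1 stood apart from the other 3, and the log2 fold change was 0.82 (SE 0.83). Col5a1 (ENSDARG00000012593), a chain of the type V collagen that nucleates type I fibrils, measured 100.2, 114.8, 42.9 and 37.8 CPM in siblings and 237.2, 155.4, 55.7 and 67.0 CPM in mutants. Its libraries numbered 1 and 2 were again the high ones in both groups, with pair ratios of 2.37, 1.35, 1.30 and 1.77 and a log2 fold change of 0.80 (SE 0.52). In all 4 fibrillar genes the difference within pair 1 was the largest of the 4 pairs. Leaving out mutant 1 lowered the log2 fold change of col1a2 to 0.16 and that of col1a1a to 0.26, the lowest values over all settings tried.

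Mmp2 (ENSDARG00000017676) encodes gelatinase A, a secreted metalloprotease that cleaves denatured collagens and type IV collagen. It measured 77.4, 66.6, 59.4 and 49.7 CPM in siblings and 168.7, 125.6, 77.9 and 115.9 CPM in mutants 1 to 4. The groups did not overlap, but the margin was narrow, since the lowest mutant library stood at 77.9 CPM and the highest sibling at 77.4 CPM. Pair ratios were 2.18, 1.88, 1.31 and 2.33, and the means were 63.3 ± 11.7 and 122.0 ± 37.3 CPM (SD, n = 4 per group), for a log2 fold change of 0.95 (SE 0.26). Over all settings tried it ranged from 0.60 to 1.12. Mmp2 varied less over the 8 libraries than col18a1a and the fibrillar collagens did. Its highest library was 3.39 times its lowest, against 41.0 times for col18a1a, 12.7 to 19.1 times for the type I collagen genes and 6.28 times for col5a1.

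MMP14 names the membrane-anchored metalloprotease that, in mammals, activates the secreted Mmp2 precursor at the cell surface. Its identifier ENSDARG00000002235 measured 19.5, 26.2, 18.0 and 20.9 CPM in siblings and 12.9, 39.0, 20.2 and 11.1 CPM in mutants. Mutant 2 was the highest of the 8 libraries and mutant 4 the lowest, so the mutants lay on both sides of the siblings, with a log2 fold change of -0.02 (SE 0.41). The identifier ENSDARG00000008388 measured 89.2, 78.2, 106.2 and 74.9 CPM in siblings and 104.7, 93.9, 94.7 and 95.6 CPM in mutants, and the log2 fold change was 0.16 (SE 0.18). It was the steadiest of the 11 identifiers, with its highest library 1.42 times its lowest.

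Sparc (ENSDARG00000019353) encodes a secreted glycoprotein that binds collagens and is found in basement membranes and in bone. It measured 977.7, 1594.3, 428.4 and 209.4 CPM in siblings and 1507.6, 2048.0, 519.1 and 332.7 CPM in mutants. Libraries 1 and 2 were again the high ones in both groups, and mutant 2, not mutant 1 as for the type I collagens, was the highest of the 8. The mutant level was 1.54, 1.29, 1.21 and 1.59 times the sibling level within pairs, and the log2 fold change was 0.46 (SE 0.69). Without mutant 2 the fitted value was -0.02.

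**Figure D2:**
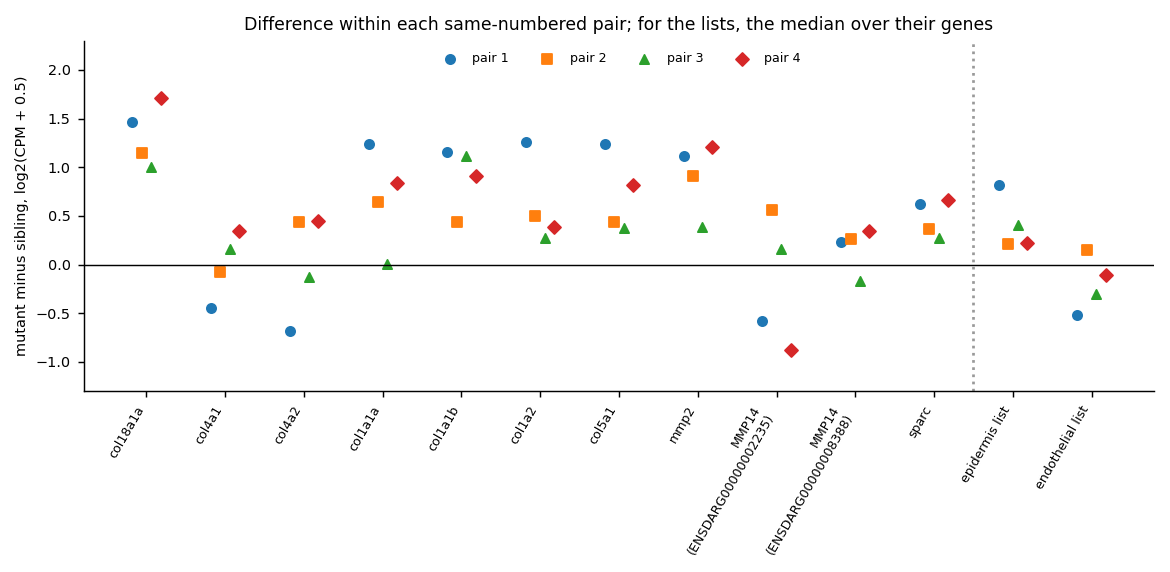
Difference between the mutant and the sibling library of each same-numbered pair, in log2(CPM + 0.5), for each identifier, and for the epidermal and endothelial marker lists as the median over their genes. All 4 points lie above 0 for col18a1a, the fibrillar collagens, mmp2, sparc and the epidermal list, and on both sides of 0 for col4a1, col4a2, both MMP14 identifiers and the endothelial list.

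For 6 of the 11 identifiers the libraries fell apart by replicate number, while the genotypes overlapped. For col18a1a, col1a1a, col1a1b, col1a2, col5a1 and sparc all 4 libraries numbered 1 and 2 lay above all 4 numbered 3 and 4, which was so for 6.44% of all tested genes. Col18a1a, for example, spanned 234.2 to 720.1 CPM in the former and 17.6 to 122.6 CPM in the latter. Col4a2 had the opposite order, 19.9 to 35.3 CPM in libraries 1 and 2 and 43.9 to 72.2 CPM in libraries 3 and 4 (5.42% of all tested genes), and the other 4 identifiers overlapped. The labels do not say what the numbers stand for.

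Most epidermal markers moved with these numbers. Of the 18 epidermal markers measured, among them krt4, epcam and cdh1, all were detected, and 14 (77.8%) had libraries 1 and 2 all above libraries 3 and 4. Their summed level was 33298.8, 52195.2, 10650.4 and 4707.3 CPM in siblings 1 to 4 and 87365.3, 62563.4, 13571.0 and 6213.1 CPM in mutants 1 to 4. The mutant sum was the higher in every pair, and the keratin gene krt4 alone measured 1585.0 CPM in sibling 4 and 54751.0 CPM in mutant 1. Of the 18 genes, 15 had a log2 fold change above 0 (50.2% of all tested genes), with a median of 0.57. The part of these cells in the differences of col18a1a, the fibrillar collagens and sparc was not tested, and in such bulk samples more cells of a type and more RNA per cell cannot be told apart.

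Endothelial markers had the opposite order: for 16 of 17 (94.1%), libraries 1 and 2 lay all below libraries 3 and 4, as for col4a2. All 17 were detected, and their summed level ran from 5063.7 to 11408.8 CPM in siblings and from 3959.2 to 11202.2 CPM in mutants. Of the 17, 14 had a log2 fold change below 0 (49.8% of all tested genes), with a median of -0.11. The vascular cadherin gene cdh5 measured 257.7, 195.4, 550.4 and 595.3 CPM in siblings and 160.8, 359.8, 414.6 and 601.0 CPM in mutants, so endothelial RNA was present in every library. Pair 1, where col4a1 and col4a2 were lowest in the mutant relative to its sibling, was also the pair with the lowest median difference of the endothelial list, -0.51 in log2, while the epidermal list stood at 0.81 there, its highest. In pairs 2, 3 and 4 the endothelial medians were 0.15, -0.30 and -0.10 and the epidermal ones 0.21, 0.41 and 0.22. The differences in these pairs were -0.08, 0.16 and 0.34 for col4a1 and 0.44, -0.13 and 0.45 for col4a2. A link of the col4 genes to the marker lists was not tested.

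**Figure D3:**
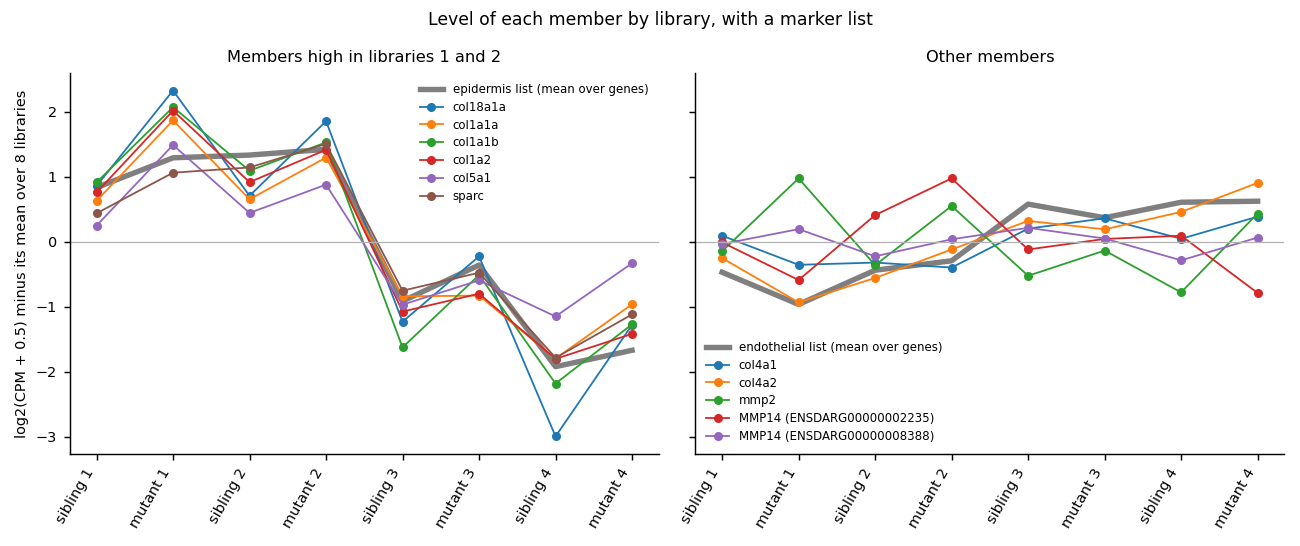
Level of each identifier relative to its own mean over the 8 libraries, in log2(CPM + 0.5), ordered by replicate number, with the mean of the epidermal list (left) or of the endothelial list (right) as a thick grey line. The 6 genes on the left are high in libraries 1 and 2 with the epidermal list, and col4a2 on the right is lowest in mutant 1 and highest in mutant 4.

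The other marker lists showed smaller or different spreads, and in each of them most tested genes had no split by number. The fibroblast and mesenchyme list, a usual source of type I collagen, summed to 717.3 to 1229.8 CPM in siblings and 700.3 to 1039.9 CPM in mutants over 20 identifiers, with a median log2 fold change of -0.01 and dpt under 1 CPM throughout. The lymphatic and venous list (13 identifiers) summed to 2467.4 to 3220.0 CPM in siblings and 2168.0 to 3646.6 CPM in mutants. Of the 13, 10 had a log2 fold change below 0 (49.8% of all tested genes), with a median of -0.32. At an unadjusted p under 0.05 edgeR called 2 of the 13 lower and 0 higher, against 1.67% and 1.33% of all tested genes. After adjustment 0 passed. The most abundant gene of the list, lyve1a, went the other way. It had a log2 fold change of 0.90 (SE 0.42), with the mutant higher in 4 of 4 pairs (8% of all tested genes). The cartilage and bone list ran from 45.3 to 199.7 CPM in siblings and from 103.3 to 381.5 CPM in mutants, with a median log2 fold change of 0.48 and with acanb, sp7, bglap and entpd5a under 1 CPM in every library. For skeletal muscle the sums were 1344.7 to 5803.2 CPM and 2121.4 to 6850.1 CPM, with 11 of 12 genes above 0 (50.2% of all tested genes) and a median of 0.52. Mural and smooth muscle markers summed to 1332.5 to 2172.9 CPM in siblings and 1354.0 to 1961.6 CPM in mutants, with a median of 0.02. Pigment and neural crest markers reached at most 62.8 CPM in siblings and 47.7 CPM in mutants, and leukocyte markers 268.6 and 398.0 CPM, with medians of -0.50 and 0.06. Under 1 CPM in every library were MITF (ENSDARG00000037833), tyr and crestin of the former and lyz and csf1ra of the latter. Of 8 tested leukocyte markers edgeR called 2 lower and 0 higher at an unadjusted p under 0.05. It called 1 of 17 fibroblast genes in each direction and 1 of 12 skeletal muscle genes higher. Of all tested genes 1.67% were called lower and 1.33% higher. After adjustment 0 of these passed in edgeR, while DESeq2 passed 1 leukocyte marker (0.337% of all genes it tested). The most abundant genes of these lists were foxf2a, lyve1a, COL2A1 (ENSDARG00000011407), actc1b, TAGLN (ENSDARG00000033466), TYRP1 (ENSDARG00000056151) and lcp1, with plvapb leading the endothelial list. Their part in the results was not tested.

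Basement membrane collagens were set against fibrillar ones within each library, as the mean log2(CPM + 0.5) of col4a1, col4a2 and col18a1a minus that of the 4 fibrillar genes. The difference was -2.23, -2.66, -0.94 and -0.93 in siblings 1 to 4 and -3.34, -2.66, -1.03 and -0.83 in mutants 1 to 4. The mean was -1.69 ± 0.89 in siblings and -1.97 ± 1.23 in mutants (SD, n = 4 per group), and the gap of -0.28 between them came mostly from pair 1, which stood at -1.11 against 0.00, -0.10 and 0.10 in the others. Without mutant 1 the gap was 0.18. The 3 basement membrane genes did not move together, so the group is better described in parts.

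With col4a1 and col4a2 alone, a choice made after the values had been seen, the balance was lower in the mutant of every pair, by -1.79, -0.32, -0.43 and -0.34 in log2. Col18a1a alone went the other way, with pair differences of 0.24, 0.64, 0.56 and 0.98 above the fibrillar genes and means of -1.26 ± 0.65 in siblings and -0.65 ± 0.40 in mutants. In each pair it was thus higher in the mutant by more than the mean of the 4 fibrillar genes was, although col1a1b alone differed by more in pair 3 (2.17 against 2.02 times). Mmp2 relative to the same 4 genes differed by -0.10, 0.41, -0.05 and 0.48, with no common direction.

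The genes whose levels across the 8 libraries were most like those of col18a1a were, of 8883 genes with a mean of at least 10 CPM, STK25 (Pearson r = 0.992), si:ch211-202f3.3 (r = 0.991), EGFL6 (r = 0.988), TFAP2A (r = 0.988) and si:ch211-198c19.3 (r = 0.988), each with a Spearman rho between 0.93 and 0.98. These correlations are a description over 8 libraries that share replicate numbers and the split of numbers 1 and 2 from 3 and 4. EGFL6, a secreted basement membrane protein of the EGF repeat family, measured 271.4, 346.3, 25.2 and 5.45 CPM in siblings and 875.3, 571.1, 126.0 and 40.7 CPM in mutants. TFAP2A, a transcription factor of early epidermis and neural crest, measured 33.2, 34.04, 6.05 and 1.29 CPM in siblings and 80.8, 47.6, 11.98 and 3.62 CPM in mutants. In both genes, as in col18a1a, each mutant library was above the sibling of its number and sibling 4 was the lowest library.

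Placed on the same scale of likeness, the epidermal genes krt4 (r = 0.983, rank 8), cdh1 (r = 0.968, rank 38) and epcam (r = 0.961, rank 62) stood among the other matrix genes: col1a1b was at rank 19, col1a1a at 28, col1a2 at 54, sparc at 94 and col5a1 at 134. Mmp2 was further off, at rank 949 with r = 0.72. The MMP14 identifiers stood at ranks 2548 and 3218. Col4a1 (r = -0.67) and col4a2 (r = -0.81) were near the other end of the 8883 genes, at ranks 7486 and 8259, with the endothelial genes kdrl (rank 8120) and cdh5 (rank 8360). Krt4, cdh1, epcam, kdrl and cdh5 were picked for this comparison after the marker lists had been seen.

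Other matrix genes were taken from 5 lists that hold none of the members, 242 identifiers of which 207 passed the filter. At an unadjusted p under 0.05 edgeR called 4 of them (1.93%, all higher in mutants) against 3% of all tested genes (1.33% higher and 1.67% lower), and 0 passed after adjustment over all genes, the smallest adjusted p being 1.0. A block for the replicate number gave 22 calls (19 higher and 3 lower, 10.6%) against 5.85% of all tested genes (2.98% higher and 2.88% lower), and again 0 after adjustment, with a smallest adjusted p of 0.476. DESeq2 called 8 (3.88%) at an unadjusted p under 0.05, against 4.19% of all genes it tested, and limma-trend on the deposited log2 values called 10 (4.83%) against 4.58%. In edgeR the count of 4 became 8 (3.86%) without sibling 2, against 2.98% of all genes in that fit. It became 10 (4.74%) without mutant 3, against 3.97%, and 9 (4.25%) without mutant 4, against 4.06%. Without the 3 libraries with the fewest genes it was 8 (3.62%), against 3.42%. No other matrix gene is therefore reported as changed, and values follow as levels.

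The 4 genes were kdelr2a, FKBP10 (ENSDARG00000045129), dcn and THBS1 (ENSDARG00000010785), of which FKBP10 works in the endoplasmic reticulum, where collagens are folded. Kdelr2a, a receptor that returns chaperones to that compartment, measured 91.4, 92.7, 89.5 and 91.0 CPM in siblings and 119.4, 154.6, 121.9 and 142.2 CPM in mutants. All its mutant libraries lay above all its sibling libraries, as for 1.42% of all tested genes. Its siblings had an SD of 1.32 CPM (n = 4) and no split by replicate number was seen. The log2 fold change was 0.56 (SE 0.17). Kdelr2a was named for its small p in these same libraries, so its pattern is only a description. FKBP10, a prolyl isomerase that assists collagen folding, averaged 7.39 ± 3.23 CPM over siblings and 17.2 ± 7.81 CPM over mutants (SD, n = 4 per group). Its groups overlapped, and the ratio in pair 3 was 1.07. The other FKBP10 identifier (ENSDARG00000099183) had a log2 fold change of -0.42 (SE 0.91). Dcn, the collagen-binding proteoglycan decorin and also on the fibroblast list, measured 33.0, 42.7, 30.9 and 25.1 CPM in siblings and 65.2, 74.1, 56.7 and 35.2 CPM in mutants. It was higher in the mutant of 4 of 4 pairs (8% of all tested genes), though the groups overlapped. THBS1, a thrombospondin that binds matrix and in mammals restrains vessel growth, averaged 155.2 ± 34.4 CPM over siblings and 238.5 ± 43.8 CPM over mutants (SD, n = 4 per group).

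Among the other fibrillar and interstitial collagens 25 of 30 tested genes had a log2 fold change above 0 (50.2% of all tested genes), with a median of 0.70 (all genes 0.00). Libraries 1 and 2 lay all above libraries 3 and 4 for 13 of them (43.3%, against 6.44% of all genes), and none had the reverse (5.42% of all genes). Among those averaging 5 CPM or more, the genes with the smallest p were COL2A1 (ENSDARG00000069093) at 1.17 (SE 0.65), COL12A1 (ENSDARG00000078322) at 0.92 (SE 0.93), COL2A1 (ENSDARG00000011407) at 0.90 (SE 0.999) and col16a1 at 0.83 (SE 1.01), all in log2. Below that mean, col6a4b (-3.75, SE 1.87) had a smaller p than any of these. Col8a2 (1.43, SE 0.97) and col5a2b (-1.84, SE 1.58), also below it, had a smaller p than COL12A1. Type XI collagen is a fibril-forming partner of type II in cartilage, and its gene col11a1a, picked after its values were seen, measured 278.6, 346.0, 39.9 and 5.62 CPM in siblings and 600.4, 399.9, 56.7 and 33.0 CPM in mutants. It had the split by number of col18a1a, with the mutant higher in 4 of 4 pairs (8% of all tested genes). The hemidesmosomal collagen genes col17a1a and col17a1b are epidermal and stand on the epidermal list too. Their log2 fold changes were 0.71 (SE 1.12) and 0.82 (SE 1.14), with the same split by number. Each was higher in the mutant of 3 of 4 pairs, and in pair 4 the log2 differences were -2.21 and -0.95.

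In the list of other basement membrane genes 24 of 38 tested genes lay above 0 (50.2% of all tested genes), with a median of 0.28. Libraries 1 and 2 lay all above libraries 3 and 4 for 9 of them (23.7%, against 6.44% of all genes). The type IV genes col4a5 and col4a6, whose chains belong to a different trimer than those of col4a1 and col4a2, were among these 9. Col4a5 measured 180.5, 117.4, 1.71 and 5.19 CPM in siblings and 153.3, 277.3, 10.7 and 1.75 CPM in mutants, and col4a6 had 137.1, 162.0, 15.8 and 10.8 CPM against 228.8, 309.8, 22.2 and 0.447 CPM. Both measured at most 10.8 CPM in the libraries numbered 4, where col4a2 had its highest levels. The laminin genes differed in the same way: lama5 spanned 100.9 to 197.2 CPM in libraries 1 and 2 and 12.6 to 30.8 CPM in libraries 3 and 4, while lama4, a vascular laminin chain, had 75.5, 75.9, 109.1 and 150.3 CPM in siblings and 98.5, 110.8, 103.9 and 178.1 CPM in mutants. These 4 genes were picked with their values in view.

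By the smallest p the named basement membrane genes were lamc3 (log2 -2.40, SE 1.30), LAMB1 (ENSDARG00000101209; 0.55, SE 0.33), frem1a (0.99, SE 0.62) and dag1 (0.88, SE 0.55). Lamc3, a laminin gamma chain gene, measured 2.66, 5.57, 12.2 and 18.2 CPM in siblings and 0.263, 0.068, 6.49 and 0.465 CPM in mutants, lower in the mutant of 4 of 4 pairs. Its groups overlapped, since mutant 3 stood above siblings 1 and 2, and the difference did not pass after adjustment in either fit. Dag1, the gene for the laminin receptor dystroglycan, measured 29.3, 37.97, 14.4 and 9.93 CPM in siblings and 67.8, 55.6, 31.9 and 12.7 CPM in mutants. The mutant was higher in each pair (8% of all tested genes).

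Collagen folding, processing and cross-linking genes had little of the split by number: 2 of 41 tested genes had libraries 1 and 2 all above (4.88%) and 3 all below (7.32%), near the 6.44% and 5.42% of all genes. Of these 41, 28 had a log2 fold change above 0 (50.2% of all tested genes), with a median of 0.16. Besides kdelr2a and FKBP10, the smallest p belonged to creb3l2 (0.71, SE 0.32), a transcription factor of the secretory pathway, and sec24d (1.53, SE 0.76), a coat protein of the vesicles that carry procollagen. Both were higher in the mutant of 4 of 4 pairs (8% of all tested genes). Creb3l2 measured 42.7, 43.3, 29.3 and 33.9 CPM in siblings and 102.0, 57.1, 38.01 and 46.6 CPM in mutants. Mutant 1 was the highest library here, as for the fibrillar collagens.

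Other matrix proteases and inhibitors had 23 of 38 tested genes above 0 (50.2% of all tested genes) and a median of 0.10. In each direction 5 genes (13.2%) split by number, against 6.44% of all genes with libraries 1 and 2 above and 5.42% below. Ctsla, a cathepsin L gene, measured 627.2, 667.3, 687.9 and 543.1 CPM in siblings and 383.6, 555.5, 538.1 and 487.8 CPM in mutants, lower in the mutant of 4 of 4 pairs, a log2 fold change of -0.36 (SE 0.19). Reck, a membrane inhibitor of metalloproteases, had a log2 fold change of -0.46 (SE 0.32), ADAM17 (ENSDARG00000043213) one of 0.51 (SE 0.28) and mmp25b one of -1.09 (SE 1.08). None of these passed after adjustment.

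Matrix glycoproteins and proteoglycans had 30 genes above and 30 below 0 of 60 tested, with a median of 0.00. THBS3 (ENSDARG00000077641) had a log2 fold change of 1.46 (SE 0.76) and THBS1 (ENSDARG00000103775) one of 0.66 (SE 0.40). Both kinds of library pattern occurred in this list, as genes named after their values were seen show. POSTN (ENSDARG00000104267), a periostin gene, measured 274.8, 322.3, 49.98 and 19.7 CPM in siblings and 608.3, 561.4, 77.8 and 50.6 CPM in mutants, high in libraries 1 and 2 like col18a1a. Mmrn2a, an endothelial matrix glycoprotein gene, was low in libraries 1 and 2 like col4a2, with 176.3, 189.9, 446.3 and 529.8 CPM in siblings and 196.2, 215.6, 333.3 and 534.6 CPM in mutants.

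**Figure D4:**
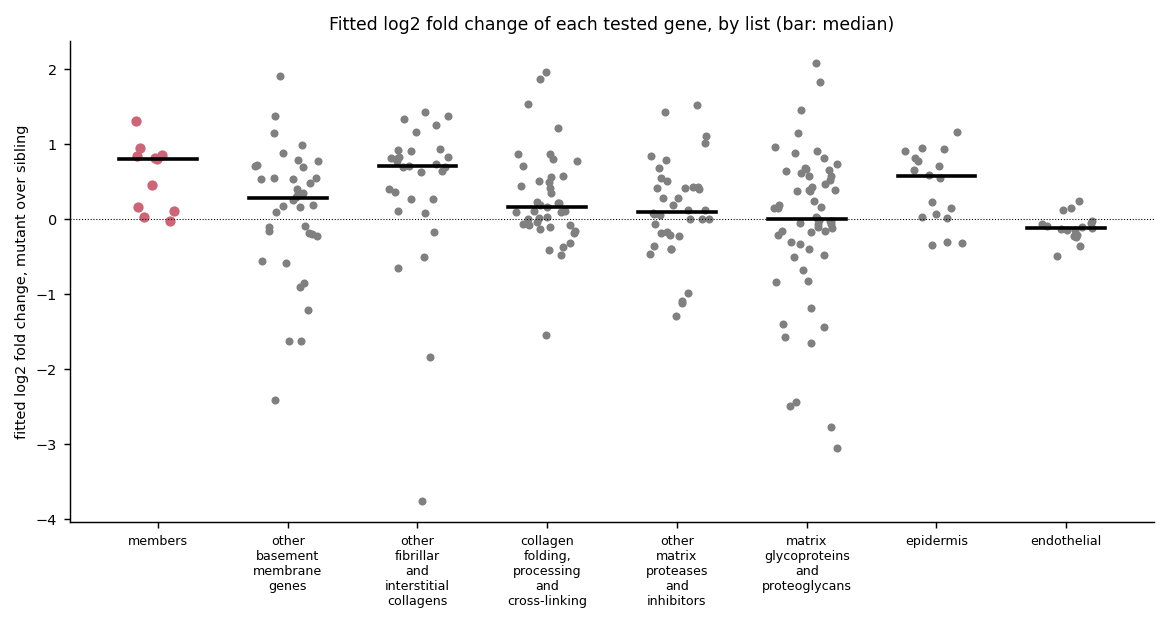
Fitted log2 fold change, mutant over sibling, of each tested gene in the members and in 7 gene lists, with a bar at each median. The medians are 0.80 for the members, 0.70 for the other fibrillar and interstitial collagens, 0.57 for epidermal markers, -0.11 for endothelial markers and 0.00 for matrix glycoproteins and proteoglycans.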

How the data were processed

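The authors deposited raw counts per Ensembl gene for 8 libraries, and a second table of log2 CPM labelled as batch corrected. Its log2 values equalled log2(CPM + 1) of the deposited counts (largest difference 5e-14 over 260160 values) and served as an alternative. The build GRCz11 and the tools featureCounts, Subread 2.0.0, FastQC and edgeR are listed per the submitters' processing notes. The sources used here do not give their order, the strand setting or the annotation, so overlapping and antisense genes cannot be separated. Symbols were matched for 29201 of 32520 identifiers and for 358 of 391 listed names.

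Counts were filtered (filterByExpr, minimum count 10, minimum total 15), scaled by TMM and fitted with edgeR 4.0.16 (robust quasi-likelihood, group as the term) in R 4.3.3, with Benjamini-Hochberg adjustment over all 18549 genes. The fit was tested on simulated data. DESeq2 1.42.0, limma 3.58.1, RLE scaling, no filter, a replicate block and leaving out each library were alternatives. Replicates of a group were compared and differed by more than counting error (chi-square over its degrees of freedom at least 112). The cause of this spread was not tested. Mutant 4, with the most reads (51173007), had the fewest genes with a read (18051).

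Replicate numbers come from the sample titles. Deviations from group means correlated within same-numbered pairs (r = 0.222, 0.281, 0.181 and 0.302 for numbers 1 to 4). The numbers were therefore taken to pair the libraries in the descriptions and in the replicate block. The main fit and the permutation test did not use them. Unlike numbers gave lower values, but r was also above 0 for sibling 2 with mutant 1 (0.154), sibling 1 with mutant 2 (0.150) and sibling 3 with mutant 4 (0.098). Whether the numbers mark true pairs, beyond the split of 1 and 2 from 3 and 4, was not tested.

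Members and lists were chosen with earlier results of these data known. Named genes were all members, ddx21, the 4 genes of smallest p per matrix list that averaged 5 CPM or more, the 5 most like col18a1a and the most abundant gene of each marker list. Other names fall outside this rule and were picked with the values known. Most are stated as such where they appear, but col18a1b, col17a1a, col17a1b, col6a4b, col8a2 and col5a2b are not. Nor are FKBP10 (ENSDARG00000099183) and LAMB1 (ENSDARG00000045524).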

Additional observations from a re-analysis of the deposited data

Results flagged for a closer look

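Among 24 sets of 4 libraries (11 identifiers and ddx21 in each group), 1 had a library far from the others, and chance gives about 1 set in 20. It was MMP14 (ENSDARG00000008388) in mutants, where mutant 1 measured 104.7 CPM and the other 3 libraries lay between 93.9 and 95.6 CPM. The gap between mutant 1 and the next library was 0.837 of the whole range.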

How the results depend on the processing

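The count over all genes at an adjusted p under 0.05, which was 0 in edgeR, became 62 with DESeq2, 1 with no filter on low counts and 2 with limma-trend on the deposited log2 values. It stayed at 0 when any 1 library was left out. The count of other matrix genes at an unadjusted p under 0.05, which was 4, became 22 with the replicate block (10.6%, against 5.85% of all genes), 8 with DESeq2 (3.88% against 4.19%), 10 with limma-trend (4.83% against 4.58%) and 8 without the 3 libraries with the fewest genes (3.62% against 3.42%), an alternative added after seeing the data. It ranged from 3 to 10 when 1 library was left out. The cause was not tested. The replicate block moved the count over all genes at an unadjusted p under 0.05 from 556 to 1086, and left that at an adjusted p under 0.05 at 0. The members' median log2 fold change ranged from 0.26 to 1.06 over 14 settings. Col18a1a, the 4 fibrillar genes and mmp2 were above 0 in all 14, and sparc in 13. The balance of basement membrane against fibrillar collagens ranged from -0.66 to 0.18, above 0 in 2 settings, without mutant 1 and, at 0.10, without the 3 libraries with the fewest genes. It was -0.72 with col18a1a left out. With no filter the median of all genes was -0.11. With 4 libraries per group, the spread between them was larger than counting error and limits what can be seen. The part of read depth or of the number of genes detected in that spread was not tested.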
